A study of Mus musculus with 4 samples.

Results

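The collagen genes of embryonic mouse cerebellum are described here across the neural, glial and vascular cells of single-cell libraries. Members were all gene symbols of the form Col, number, a, number that reached 10 UMIs summed over all cells of sufficient quality (500 or more genes detected, mitochondrial UMIs not above 10%). The deposited tables list 44 such symbols among 32286 genes, and 36 of them reached the limit. A UMI, a unique molecular identifier, counts 1 captured mRNA molecule. Just inside the limit were Col15a1 with 16 UMIs, Col6a6 with 25 and Col20a1 with 32. Just outside it were Col19a1 with 9 UMIs, Col4a3 and Col24a1 with 8 each and Col13a1 with 7, followed by Col6a5 with 6, Col6a4 and Col17a1 with 3 each and Col10a1 with 1.

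Single-cell RNA-seq was run on tdTomato-positive cells sorted from E15.5 cerebella, with 2 En1/2 CKO and 2 control libraries, each genotype numbered replicate 1 and 2. En1/2 CKO embryos were Ptf1aCre/+; En1lox/lox, En2lox/lox; R26LSL-tdT/+, so that Cre deleted the genes of the Engrailed transcription factors where Ptf1a had been active. Control embryos were Ptf1aCre/+; R26LSL-tdT/+ and thus carried the same Cre and reporter with no floxed allele. Embryos were pooled for each library, in numbers not given in the sources used here, and p-values measure the spread between pools. The comparison asks how loss of both Engrailed genes acts in the Ptf1a lineage, the source of cerebellar GABAergic neurons. Cre is driven by Ptf1a, and the vascular, meningeal, microglial and choroid plexus cells described below are not known members of that lineage.

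Collagens are secreted or membrane-bound proteins whose alpha chains wind into a helix, and the type of collagen follows from which chains assemble. Fibrillar collagens build the fibrils of skin, bone, cartilage and vessel walls, network collagens form basement membranes, and FACIT collagens decorate the surface of fibrils. The brain parenchyma holds little fibrillar collagen, and its classic sites are the meninges, the vessel walls and the basement membranes that glial endfeet share with vessels and pia.

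Among 24856 cells that passed the filter, 23243 remained after removal of doublets, and they formed 21 clusters that were named from marker genes with all collagens left out of the clustering. The cells kept per library numbered 5017 and 7524 for En1/2 CKO, against 9536 and 1166 for control. UMIs in these cells totalled 16666323 and 16681712 for En1/2 CKO, against 13338183 and 2954176 for control. Control replicate 2 stood apart: 25.5% of its barcodes passed, against 63.9% to 94.6% in the other 3 libraries, and its median mitochondrial share was 13.4%. Pairs of libraries shared between 1 and 22 cell barcodes. Summed over all cells, the targeted genes were lower but present, with En2 at 30.4 and 15.4 counts per 1000000 UMIs (CPM) in En1/2 CKO libraries, against 102.5 and 48.7 CPM in control libraries, and En1 at 69.3 and 61.8 CPM, against 109.5 and 77.9 CPM. En2 was below both controls in each of the 4 classes tested. En1 overlapped between the groups in progenitor-like cells, at 72.8 and 69.5 CPM in En1/2 CKO, against 80.2 and 57.2 CPM in control, and in interneuron-like cells, at 164 and 163 CPM, against 128 and 283 CPM. A 3' tag need not lie in the deleted part of either gene, so these values check the labels only in part.

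The sequences shown first belong to 3 gene pairs that recur in the results. They are the 120 bases before the start of the fibrillar genes that led the fibroblast-marker cells and of the hexagonal network pair of choroid plexus-like cells, and the stretch that the divergent type IV pair shares. All are from RefSeq on GRCm38.p6, 5′ to 3′ on the strand of the gene, with capitals marking the letters CCAAT. The starts lie at chr6:4505498-4505617 (plus strand) for Col1a2, chr1:45311418-45311537 (plus) for Col3a1, chr16:57754738-57754857 (minus) for Col8a1 and chr4:126286674-126286793 (plus) for Col8a2.
Col1a2: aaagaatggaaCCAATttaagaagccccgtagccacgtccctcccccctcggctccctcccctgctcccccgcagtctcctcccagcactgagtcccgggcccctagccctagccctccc
Col3a1: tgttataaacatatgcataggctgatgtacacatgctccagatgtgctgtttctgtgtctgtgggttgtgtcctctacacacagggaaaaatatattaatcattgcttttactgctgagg
Col8a1: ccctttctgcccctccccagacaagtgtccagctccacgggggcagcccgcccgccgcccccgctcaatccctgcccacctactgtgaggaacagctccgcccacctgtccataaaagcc
Col8a2: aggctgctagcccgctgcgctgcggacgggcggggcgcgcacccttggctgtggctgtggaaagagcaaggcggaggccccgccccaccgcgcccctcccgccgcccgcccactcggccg

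Col4a1 and Col4a2 are transcribed away from each other on chromosome 8. The RefSeq start of Col4a1 on the minus strand is base 11312826 and that of Col4a2 on the plus strand is base 11312805, so that the first exons overlap over 22 bases at chr8:11312805-11312826, given here on the plus strand.
Shared start: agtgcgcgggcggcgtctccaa
The X-linked pair Col4a6 and Col4a5 is also divergent, with starts 1343 bases apart. Of the 36 members, 28 had a promoter entry. The letters CCAAT on either strand, at -150 to -1 of the start, were in 7 of these 28 and in 24.5% of all 32851 promoters. The letters TATAAA on the strand of the gene, at -40 to -16, were in 0 of the 28 members and in 1.99% of all promoters.

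The level of collagen messages was highest in rare cells, while more of the messages lay in abundant classes. Vascular and meningeal-like cells, an endothelial-like and a mural-like cluster combined, made up 77 cells or 0.331% of all cells and 0.426% of all UMIs, but held 7.43% of all collagen UMIs. Collagen made up 7422 CPM of their UMIs. Choroid plexus-like cells followed at 1639 CPM and astroglia-like cells at 947 CPM. Progenitor-like cells had 368 CPM, granule lineage-like cells 326 CPM, Purkinje-like cells 160 CPM, interneuron-like cells 121 CPM and microglia or macrophage-like cells 90.8 CPM. The more numerous astroglia-like and progenitor-like cells held 32.6% and 18.9% of all collagen UMIs.

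Per library, the collagen level of vascular and meningeal-like cells was 7789 and 8550 CPM in En1/2 CKO, against 4979 and 10720 CPM in control. Astroglia-like cells had 803 and 980 CPM in En1/2 CKO, against 1131 and 569 CPM in control. Both sets of values overlap between the genotypes, and the class with the higher level was the same in every library.

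By type, the 10 fibrillar members held 34.8% of the 23160 collagen UMIs over cells that passed the filter, and the 8 FACIT members held 31.4%. The 5 basement membrane members held 13.3%, the 2 transmembrane members 8.52%, and Col26a1 with Col28a1 7.02%. Beaded filament, hexagonal network, multiplexin and anchoring fibril members shared the rest. Most abundant over these cells were Col9a3 with 5564 UMIs, Col2a1 with 2548 and Col5a2 with 2309. Tags of this 3' chemistry count molecules and are not divided by transcript length, but capture can differ between genes, so levels of different genes are compared only roughly.

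Levels were ranked over classes that held at least 5 UMIs of the member. Rarer entries, such as 3 UMIs of Col9a1 in mural-like cells, were left out. So ranked, the highest pooled CPM fell in mural-like cells for 14 of the 36 members and in choroid plexus-like cells for 8. Astroglia-like cells were highest for 5, endothelial-like cells for 2 and granule lineage-like cells for 2, and 5 further classes were highest for 1 each. Counted by where most UMIs lay, astroglia-like cells led for 14 members, vascular and meningeal-like cells for 7, and choroid plexus-like and progenitor-like cells for 4 each.

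**Figure D1:**
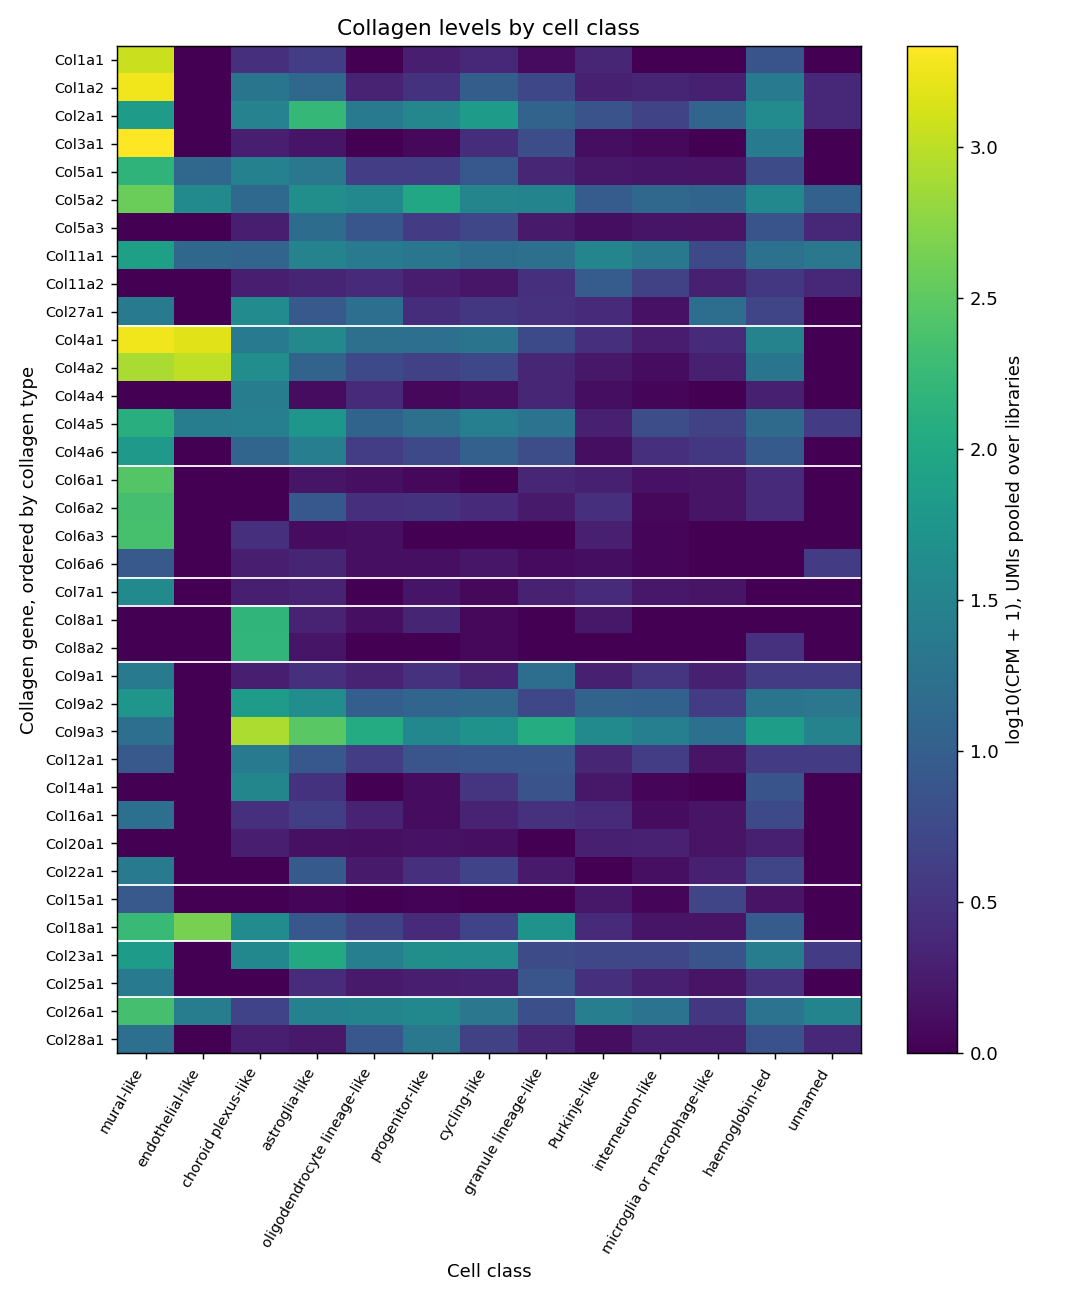
Heat map of all 36 collagen genes (rows, ordered by collagen type, white lines between types) in 13 cell classes (columns), coloured by log10(CPM + 1) of UMIs pooled over the 4 libraries. Col1a1, Col1a2 and Col3a1 are brightest in mural-like cells, Col4a1 and Col4a2 in both vascular clusters, Col8a1 and Col8a2 in choroid plexus-like cells, and Col9a3 in choroid plexus-like and astroglia-like cells.

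The interstitial fibrillar collagens were concentrated in the mural-like cluster, which held 16 and 26 En1/2 CKO cells, against 14 and 3 control cells. Col3a1, the type III chain of vessel walls and soft tissue, was at 2473 and 2207 CPM in the En1/2 CKO libraries there, against 1504 and 2442 CPM in control. Col1a2, a chain of type I collagen, was at 2095 and 2187 CPM, against 895 and 1628 CPM. Its partner chain Col1a1 was at 1159 and 1153 CPM, against 1039 and 1628 CPM. All 3 genes were high in every library, and the genotypes overlapped for Col3a1 and Col1a1 while both En1/2 CKO values of Col1a2 lay above both control values. These are values of few cells with no test, since control replicate 2 had 3 cells.

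This cluster held 77.3% of all Col3a1 UMIs, 71.9% of those of Col1a1 and 48.1% of those of Col1a2. Endothelial-like cells, 18 in all, had 0 UMIs of each, which bounds each at 45.6 CPM (upper end of the exact 95% Poisson interval, counting error only). Neurons had few UMIs of these genes, and whether those came from free RNA was not tested. Col3a1 had 1 UMI in 1879 Purkinje-like cells and 2 UMIs in 6916 interneuron-like cells. Col1a1 had 4 and 0 UMIs in these classes, and Col1a2 had 3 and 13.

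Markers split the mural-like cluster further. Pericytes and smooth muscle cells wrap vessels and carry Rgs5 and Kcnj8, whereas meningeal and perivascular fibroblasts carry Dcn and Lum, matrix proteoglycans. Of 59 cells, 41 had more mural markers detected, 17 had more meningeal fibroblast markers and 1 had equal numbers, with 3 cells within 1 marker of the divide. No collagen was in either marker list, and the split was made after the cluster had been seen. The fibroblast markers Fbln1 and Bgn were at 368 and 1103 CPM in fibroblast-marker cells, against 577 and 1167 CPM in mural-marker cells. The mural markers Acta2 and Tagln had 1 and 2 UMIs in fibroblast-marker cells, against 0 and 2 in mural-marker cells. Vtn, also a mural marker, was high in both, at 2151 and 2629 CPM. Every other marker of both lists was higher in the cells of its own list, Mgp on 2 UMIs in each set. Cells had been assigned by these same lists, so this was largely set by the split. The 17 fibroblast-marker cells came as 8 and 5 from En1/2 CKO, against 3 and 1 from control, and the 41 mural-marker cells as 8 and 21, against 10 and 2.

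Type I, III and VI collagen followed the fibroblast markers. Col1a2 was at 4247 CPM in the fibroblast-marker cells (95% Poisson interval 3717 to 4831, 231 UMIs) and at 121 CPM in the mural-marker cells (55.2 to 229, 9 UMIs). Col3a1 was at 4578 CPM (4027 to 5183), against 416 CPM (282 to 590). Col6a1, a chain of beaded filaments around cells, was at 625 CPM (433 to 874), against 26.8 CPM (3.25 to 96.9). Col1a1 differed less, at 1967 CPM (1612 to 2377) against 590 CPM (429 to 792), and had a UMI in 23 of the 41 mural-marker cells, where Col1a2 had one in 8. Col26a1, a short collagen with an EMI domain, was at 478 CPM against 40.2 CPM.

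Of the type IV chains, Col4a1 and Col4a2 went the other way, while Col4a5 and Col4a6 followed the fibroblast markers. Col4a1, a chain of the network found in all basement membranes, was at 1158 CPM in the fibroblast-marker cells (890 to 1482), against 2320 CPM in the mural-marker cells (1987 to 2693). Its partner Col4a2 was at 478 CPM (312 to 700), against 1060 CPM (839 to 1321). Col4a5 was at 294 CPM in the fibroblast-marker cells (168 to 478, 16 UMIs), against 0 UMIs in the mural-marker cells (upper bound 49.5 CPM). Col4a6 was at 147 CPM (63.5 to 289.8, 8 UMIs), against 0 UMIs with the same bound. The intervals cover counting error only, and the cells of 1 library share its preparation.

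**Figure D2:**
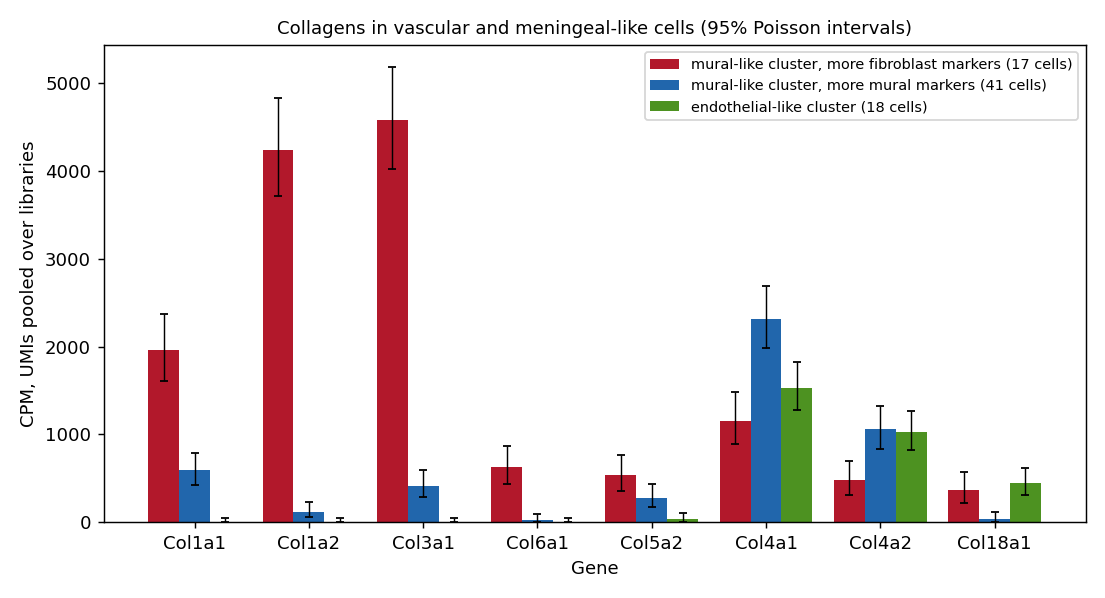
Bars show CPM of 8 collagen genes, pooled over the 4 libraries, in 17 fibroblast-marker cells (red) and 41 mural-marker cells (blue) of the mural-like cluster and in 18 endothelial-like cells (green), and error bars are exact 95% Poisson intervals. Col1a2 and Col3a1 are at 4247 and 4578 CPM in fibroblast-marker cells, while Col4a1 and Col4a2 are high in all 3 sets.

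Col4a1 and Col4a2 were high in both vascular clusters, whereas Col4a5 had 2 UMIs and Col4a6 had 0 in endothelial-like cells. In endothelial-like cells, 5 and 7 in En1/2 CKO and 6 and 0 in control, Col4a1 was at 1677 and 1904 CPM in the En1/2 CKO libraries, against 1052 CPM in control replicate 1. Col4a2 was at 1431 and 1185 CPM there, against 526 CPM. Mural-like cells had Col4a1 at 1560 and 1750 CPM in En1/2 CKO, against 2399 and 1492 CPM in control, and the genotypes overlap. Col18a1, the multiplexin whose end fragment is endostatin, was at 409 and 862 CPM in endothelial-like cells of En1/2 CKO, against 70.1 CPM in control replicate 1, where it rests on 2 UMIs.

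The balance of the 2 chains shifted between classes although the genes share a start. For every Col4a2 UMI there were 2.25 Col4a1 UMIs in mural-like cells, 1.49 in endothelial-like cells, 3.38 in astroglia-like cells and 4.39 in progenitor-like cells. Choroid plexus-like cells were reversed at 0.533, with 24 Col4a1 UMIs and 45 Col4a2 UMIs. The X-linked pair Col4a5 and Col4a6, basement membrane chains, stayed between 2.00 and 3.63 wherever both had at least 8 UMIs, except in haemoglobin-led cells at 1.69.

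Other members of the mural-like cluster were less abundant. Col6a1, Col6a2 and Col6a3 were at 276, 222 and 230 CPM pooled, and the cluster held 60% of all Col6a1 UMIs and 76.9% of those of Col6a3. Col5a2, a type V chain that joins type I fibrils, was at 334 and 477 CPM in En1/2 CKO, against 322 and 271 CPM in control. Col5a1, its partner chain, was at 146 CPM pooled, Col4a5 at 123 CPM, Col11a1 at 76.7 CPM, Col4a6 at 61.3 CPM and Col7a1, the anchoring fibril of skin, at 38.3 CPM on 5 UMIs. Both Col11a1 and Col4a6 had UMIs there in the En1/2 CKO libraries and 0 in the control libraries, on 10 and 8 UMIs.

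The share of vascular and meningeal-like cells was 0.429% ± 0.0142 in En1/2 CKO and 0.234% ± 0.0336 in control (SD, n = 2 each). Both En1/2 CKO libraries lay above both controls, and the exact permutation test gave p = 0.333, the smallest that 2 against 2 allows (2-sided). Transcripts of the tdTomato reporter, on which cells had been sorted, were at 974 CPM in mural-like and 965 CPM in endothelial-like cells (TdTom, pooled), against 443 CPM in Purkinje-like cells.

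Choroid plexus-like cells, identified by Ttr and Folr1, carried a collagen set of their own. They were 76 and 24 cells in En1/2 CKO, against 0 and 0 in control, where a count of 0 allows a share of up to 0.0315% of 9536 cells and 0.257% of 1166 cells (3 counts each). Every value in the class therefore comes from mutants, and a genotype effect within it cannot be tested.

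Both type VIII genes, whose chains build the hexagonal network of the corneal Descemet membrane, were nearly confined to it. Col8a1 was at 153 and 146 CPM in the En1/2 CKO libraries and Col8a2 at 160 and 150 CPM. The class held 86.7% of all Col8a1 UMIs and 94.97% of those of Col8a2, with 163 and 170 UMIs, a ratio of 0.959. Outside it, progenitor-like cells had 13 UMIs of Col8a1 and 0 of Col8a2.

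Col9a3, a chain of type IX collagen that coats the type II fibrils of cartilage, was the leading collagen of the choroid plexus-like class at 915 and 640 CPM. Its partner chain Col9a2 was at 65.4 and 67.2 CPM, and the third chain Col9a1 had 1 UMI against 918 of Col9a3. Col4a4, a chain of the specialised basement membranes of kidney and ear, was at 20.6 and 35.6 CPM, and the class held 57.8% of its UMIs. Col14a1 and Col12a1, FACIT collagens bound to type I fibrils, were at 33.4 and 23.2 CPM pooled, and Col27a1, a fibrillar collagen of cartilage, at 39.9 CPM.

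Astroglia-like cells used collagens best known from cartilage. Col2a1, the main fibril of cartilage, was at 129 and 147 CPM in En1/2 CKO, against 241 and 99.0 CPM in control, and the class held 53.6% of all its UMIs. Col9a3 was at 235.4 and 344 CPM, against 353 and 133 CPM. Col23a1, a transmembrane collagen, was at 92.7 and 111 CPM, against 121 and 62.2 CPM. For each of these 3 genes control replicate 1 was the highest library and control replicate 2 the lowest, with both mutants between them. Of 9 cartilage or bone markers, Acan, Matn1 and Sp7 had 0 UMIs in this class. The summed level of the list was 344 and 277 CPM in En1/2 CKO, against 153 and 458 CPM in control, of which Sox9, also a glial transcription factor, made up 1945 of 1979 UMIs.

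The 2 astroglia-like clusters divided these collagens between them. The cluster led by Gdf10, a marker of Bergmann glia, had Col2a1 at 168 and 199 CPM in En1/2 CKO, against 285 and 158 CPM in control, while the cluster led by Bcan, Slc4a4 and Aldoc had 42.6 and 88.3 CPM, against 103 and 25.5 CPM. Within every library the Gdf10 cluster was the higher one. Col9a3 ran the other way, at 156 and 190 CPM in En1/2 CKO, against 263 and 71.3 CPM in control, in the Gdf10 cluster, and at 414 and 514 CPM, against 639 and 210 CPM, in the Bcan cluster. Every library had more Col9a3 in the Bcan cluster.

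The minor type IV chains were also uneven. Col4a5 was at 66.8 and 65.4 CPM in En1/2 CKO, against 82.1 and 102 CPM in control, in the Gdf10 cluster, and between 17.1 and 24.7 CPM over the 4 libraries of the Bcan cluster. Col4a6 was at 38.8 and 39.99 CPM, against 33.2 and 35.6 CPM, in the Gdf10 cluster, and between 2.84 and 12.7 CPM in the Bcan cluster. Neither gene overlapped between the 2 clusters in any library. Col5a3, the least common type V chain, was at 14.9 and 16.8 CPM in En1/2 CKO astroglia-like cells, against 10.4 and 5.66 CPM in control, and the class held 51.3% of its UMIs. The class also held the largest shares of Col5a1 (49.5%), Col22a1 (47.9%, a FACIT of the myotendinous junction), Col9a2 (37.8%), Col6a2 (39.9%), Col6a6 (37.5%) and Col16a1 (35.4%).

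**Figure D3:**
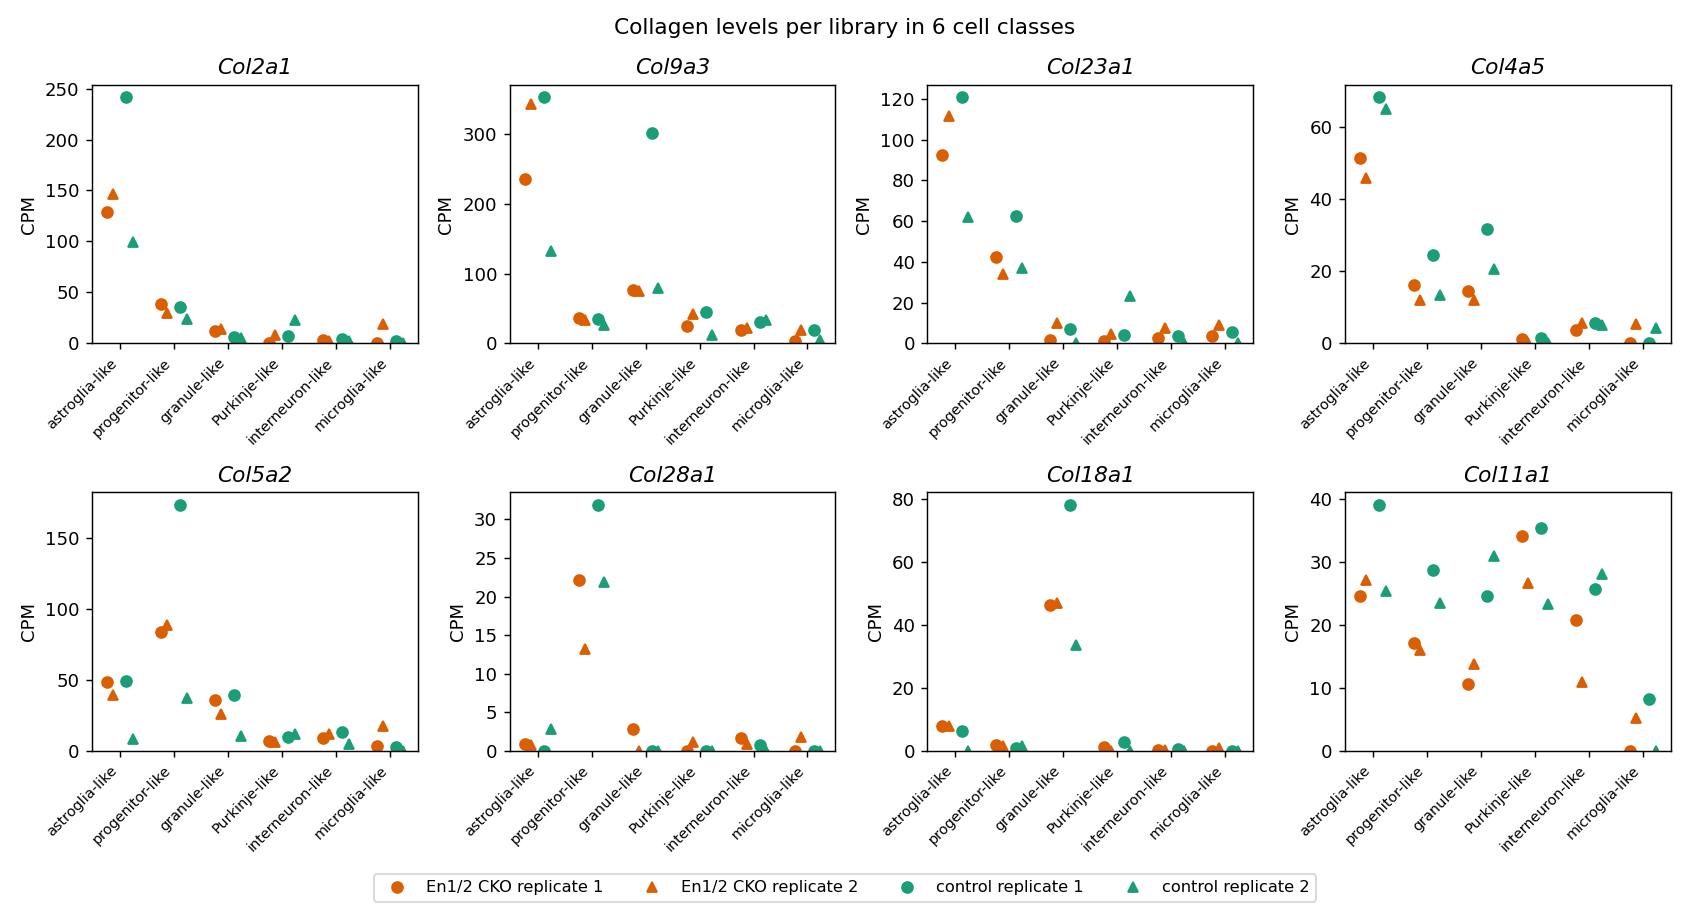
Points show CPM of 8 collagen genes (panels, y axes from 0) in 6 cell classes, with En1/2 CKO libraries in orange to the left of control libraries in green, circles for replicate 1 and triangles for replicate 2. Among these 6 classes, Col2a1, Col9a3, Col23a1 and Col4a5 peak in astroglia-like cells, Col5a2 and Col28a1 in progenitor-like cells, and Col18a1 in granule lineage-like cells, while Col11a1 is spread over the 5 neural ones.

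Progenitor-like cells were marked by Col5a2 and Col28a1. Col5a2 was at 83.8 and 88.4 CPM in En1/2 CKO, against 173 and 37.0 CPM in control, and the class held 51.2% of its UMIs. Col28a1, a collagen with von Willebrand domains known from peripheral nerve, was at 22.1 and 13.2 CPM, against 31.9 and 21.9 CPM, with 74.9% of its UMIs in the class. Among the progenitor-like clusters both were highest in the one led by Ptf1a and Neurog2, where Col5a2 was at 164 and 160 CPM in En1/2 CKO, against 240 and 65.7 CPM in control. Col28a1 was there at 58.8 and 29.1 CPM, against 55.3 and 51.6 CPM.

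In radial progenitors, marked by Fabp7 and Sox9, Col28a1 was at 0.433 CPM pooled on 1 UMI, set beside 49.1 CPM in the Ptf1a cluster. The cluster led by Neurog1 and Lhx1 lay between at 10.1 CPM. Col26a1 showed a flatter profile, at 59.1, 21.3 and 28.2 CPM pooled in the Ptf1a, Neurog1 and radial clusters.

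Granule lineage-like cells, which derive from Atoh1 progenitors and not from Ptf1a ones, stood out by Col18a1 and Col9a1. Col18a1 was at 46.1 and 46.9 CPM in En1/2 CKO, against 78.0 and 33.5 CPM in control, and the class held 46.7% of its UMIs. Col9a1 was at 13.5 and 20.2 CPM, against 10.1 and 18.1 CPM, with 41.1% of its UMIs there. Col9a1 and its partner Col9a3 thus peaked in different classes. Col25a1, a transmembrane collagen of neurons, was at 5.63 and 5.52 CPM, against 8.67 and 10.3 CPM. Col9a3 was at 75.9 and 74.5 CPM in En1/2 CKO, against 302 and 79.9 CPM in control, with control replicate 1 far above the other 3 libraries.

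Neurons of the Ptf1a lineage had little collagen. In Purkinje-like cells the leading members were Col9a3 at 24.4 and 42.3 CPM in En1/2 CKO, against 44.8 and 11.7 CPM in control, and Col11a1, a type XI fibril chain, at 34.1 and 26.6 CPM, against 35.4 and 23.3 CPM. Col26a1 was at 15.8 and 25.4 CPM, against 34.0 and 0 CPM, the last value resting on 85831 UMIs. Col11a2, the partner of Col11a1, had its highest level there, at 13.4 and 6.05 CPM, against 7.23 and 0 CPM. Col11a1 UMIs were most numerous in interneuron-like cells, which held 21.9% of them, and Col20a1, a FACIT collagen, had 11 UMIs there.

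Among other classes, Col27a1 was found in C1q-positive microglia at 24.4 and 18.1 CPM in En1/2 CKO, against 5.80 and 32.3 CPM in control, and in oligodendrocyte lineage-like cells at 16.8 and 14.9 CPM, against 19.6 and 7.67 CPM. Col15a1, a multiplexin of vascular basement membranes, had 8 of its 15 UMIs in microglia, spread over all 4 libraries as 2 and 3 in En1/2 CKO, against 2 and 1 in control. Haemoglobin-led cells, which no marker list beyond globins named, had 46 UMIs of Col1a2 and 44 of Col3a1. Col16a1, a FACIT, was at 4.45 CPM there on 9 UMIs, and at 36.8 CPM in the fibroblast-marker cells on 2 UMIs.

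In cycling-like cells Col2a1 was at 64.2 and 78.5 CPM in En1/2 CKO, against 95.4 and 36.6 CPM in control, followed by Col9a3, Col23a1, Col5a2 and Col4a5 at 50.7, 41.5, 32.2 and 26.6 CPM pooled. In oligodendrocyte lineage-like cells Col9a3 was at 89.4 and 109 CPM, against 202 and 61.4 CPM, followed by Col5a2, Col26a1, Col23a1 and Col11a1 at 35.5, 31.4, 26.9 and 23.5 CPM pooled. Progenitor-like cells also had Col23a1 at 42.4 and 34.1 CPM, against 62.7 and 37.0 CPM. Col2a1 in cycling-like and Col9a3 in oligodendrocyte lineage-like cells were highest in control replicate 1 and lowest in control replicate 2.

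Serpinh1 and Sparc, partners of collagen synthesis and matrix binding, were high in the classes with much collagen. Serpinh1, the endoplasmic reticulum chaperone of procollagen, was at 1493 and 1571 CPM in mural-like cells of En1/2 CKO, against 2471 and 2306 CPM in control. In astroglia-like cells Serpinh1 was at 808 and 926 CPM, against 1239 and 413 CPM, and in Purkinje-like cells it stayed between 18.2 and 35.0 CPM over the 4 libraries. Sparc, a collagen-binding matrix protein, was at 6658 CPM pooled in endothelial-like, 3204 in mural-like, 2069 in astroglia-like and 48.8 in Purkinje-like cells. P4ha3, a prolyl hydroxylase subunit, was unlike them, at 82.2 CPM in astroglia-like cells and at 7.66 CPM in mural-like cells. Pcolce, which speeds cleavage of the procollagen end peptide, was at 238 CPM in mural-like cells and at 0.550 CPM in astroglia-like cells.

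Receptors divided by class. Itga1, the collagen-binding integrin subunit, was at 567 CPM in mural-like cells and at 2.20 CPM in astroglia-like cells. Ddr1, a receptor tyrosine kinase for collagen, was at 249.3 and 287 CPM in progenitor-like cells of En1/2 CKO, against 540 and 173 CPM in control, and at 30.7 CPM pooled in mural-like cells. Adgrg1, an adhesion receptor that binds type III collagen in developing cortex, was at 150 CPM in astroglia-like and 121 CPM in progenitor-like cells, classes in which Col3a1 itself was at or below 0.550 CPM. Among basement membrane partners, Nid1, which links laminin to type IV collagen, was at 460 CPM in mural-like and 529 CPM in astroglia-like cells, and Lamc3 had 32 of its UMIs in mural-like and 0 in astroglia-like cells. Mmp9, a gelatinase, was at 460 CPM in mural-like cells and Timp4, an inhibitor of such proteases, at 324 CPM in astroglia-like cells.

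No collagen gene differed between En1/2 CKO and control at an adjusted p under 0.05 in any of the 5 sums tested. UMIs were summed per library and compared with edgeR (quasi-likelihood test, Benjamini-Hochberg over all genes tested). Members that passed the filter on low counts numbered 33 in all cells, 19 in astroglia-like, 13 in progenitor-like, 6 in interneuron-like and 3 in Purkinje-like cells. Over all genes the test called 0% in each direction in every sum, except for 2 of 8809 genes, or 0.0227%, called higher in Purkinje-like cells. At an unadjusted p under 0.05, 1 of the 19 members was lower in astroglia-like cells, where 2.4% of all genes were, 2 of 13 in progenitor-like cells, where 3.82% were, and 1 of 6 in interneuron-like cells, where 1.74% were. None was higher in these classes, where 1.6%, 2.65% and 1.4% of all genes were. In Purkinje-like cells the count was 0 in both directions, where 1.41% of all genes were higher and 1.44% lower. DESeq2 called 2 of 36 members in all cells, where it called 51 of 16507 genes. In the 4 classes it called 0 members, where it called 0 to 2 genes each. Vascular and meningeal-like cells were not tested, since control replicate 2 had 3 of them against a minimum of 20 per library. In data simulated like these sums, the test recovered 70% of 4-fold and 8% of 2-fold changes in all cells, and 76% to 90% and 10% to 18% in the 4 classes. Most changes of 2-fold were therefore missed there in all 5 sums, and what limits the recovery was not tested.

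Summed over all cells, collagen took 452 and 437 CPM in En1/2 CKO, against 410 and 280 CPM in control. Both mutants lay above both controls for 17 of the 33 members tested, where 22.7% of all genes did so, and below both for 2, where 12.1% did. The median log2 fold change of the 33 was 0.30, set beside -0.06 for all 14785 genes. It was above 0 for 23 of them, where 43.7% of all genes were, and below 0 for 10, where 56.3% were. At an unadjusted p under 0.05, 5 members were higher, where 2.86% of all genes were, and 1 was lower, where 1.79% were. The higher members include Col8a1, with 135 and 50 UMIs in En1/2 CKO, against 3 and 0 in control, and Col8a2, with 132 and 46, against 0 and 1. Both passed the filter on low counts through the mutant libraries, so these counts and the median rest in part on members admitted by the difference itself. In such sums, fewer cells of a type and less RNA per cell cannot be told apart. Astroglia-like cells were 20.5% and 20.1% of the cells in En1/2 CKO, against 14.1% and 16.04% in control, and their part in these counts was not tested.

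The largest differences lay in the type VIII pair. Col8a1 was at 8.10 and 2.997 CPM in En1/2 CKO, against 0.225 and 0 CPM in control, a log2 fold change of 4.84 ± 0.94 (SE, edgeR adjusted p = 0.948). Col8a2 was at 7.92 and 2.76 CPM, against 0 and 0.339 CPM, a log2 fold change of 6.096 ± 1.33 (edgeR adjusted p = 0.948), and such a value against controls near 0 depends on the model's prior. The groups did not overlap for either gene. The same libraries held 76 and 24 choroid plexus-like cells, against 0 and 0. DESeq2 called both genes, at adjusted p = 0.0101 for Col8a1 and 0.00881 for Col8a2. Fits with the replicate block gave edgeR adjusted p of 0.000354 and 0.000476. The folds depend on single libraries: with 1 library left out, the log2 fold change of Col8a1 lay between 3.98, without En1/2 CKO replicate 1, and 9.06, without control replicate 1. That of Col8a2 lay between 3.84, without control replicate 1, and 9.37, without control replicate 2.

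By the smallest unadjusted p, Col4a2, Col11a1, Col5a3 and Col4a1 came next. Col4a2 was at 9.54 and 11.4 CPM in En1/2 CKO, against 5.10 and 4.74 CPM in control, a log2 fold change of 1.02 ± 0.29 (edgeR adjusted p = 0.948). Col5a3 was at 4.08 and 5.63 CPM, against 2.17 and 2.03 CPM, a log2 fold change of 1.13 ± 0.38 (edgeR adjusted p = 0.948). Col11a1 was at 17.9 and 16.3 CPM, against 29.2 and 25.7 CPM, a log2 fold change of -0.75 ± 0.22 (edgeR adjusted p = 0.948), and of -0.81 without control replicate 2. Col4a1, the partner of Col4a2, was at 25.0 and 22.8 CPM, against 15.7 and 13.5 CPM, a log2 fold change of 0.63 ± 0.23 (edgeR adjusted p = 0.948). None of these 4 genes overlapped between the groups. Col9a3, the most abundant member, was at 112 and 105 CPM, against 101 and 49.8 CPM, and was called in no fit with all 4 libraries.

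Leaving out vascular, meningeal and choroid plexus-like cells, a setting not planned in advance, also changed the number of members tested, from 33 to 27. Of 27 members then tested, 8 lay above both controls, where 21.6% of all genes did, and 3 lay below both, where 11.5% did. The edgeR test called 0 of them, and 0% of all genes in either direction. At an unadjusted p under 0.05, 2 were higher, where 1.66% of all genes were, and 1 was lower, where 1.64% were. Col8a1, Col8a2, Col4a4, Col6a1, Col6a3 and Col7a1 no longer passed the filter on low counts. Col4a1 was then at 18.0 and 14.4 CPM in En1/2 CKO, against 8.51 and 9.84 CPM in control, a log2 fold change of 0.77 ± 0.27. Col4a2 was at 4.31 and 5.14 CPM, against 2.86 and 3.05 CPM, with a log2 fold change of 0.62 ± 0.34 in place of 1.02. Col5a3 stayed at 1.17 ± 0.37 and Col11a1 at -0.76 ± 0.22 on the log2 scale. The groups then overlapped for Col9a3, at 70.45 and 96.9 CPM in En1/2 CKO, against 101.2 and 49.55 CPM in control. Its log2 fold change was 0.08 in place of 0.45.

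**Figure D4:**
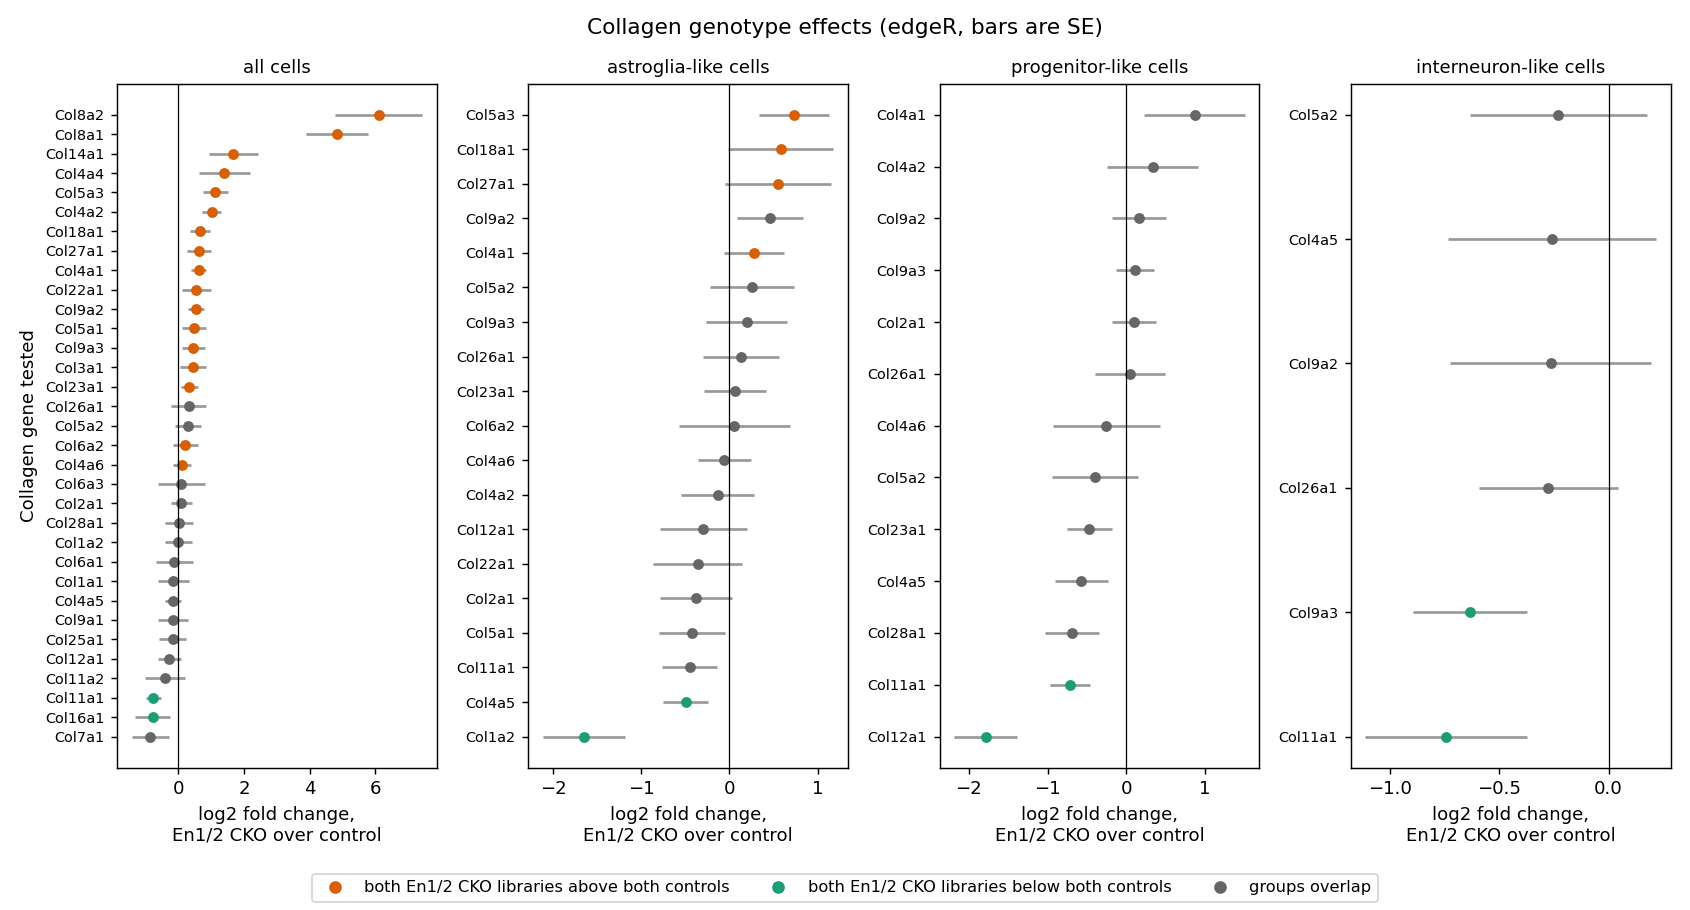
Points show the log2 fold change of En1/2 CKO over control for each collagen tested in 4 sums of cells (panels, members ordered by value), with bars for the SE of edgeR, orange where both mutant libraries lie above both controls, green where both lie below and grey where they overlap. Col8a1 and Col8a2 are at the top in all cells, and Col1a2 and Col12a1 are the lowest in astroglia-like and progenitor-like cells.

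Within classes, the members with the smallest p had lower values in mutants. The log2 fold change was below 0 for 7 of 13 members in progenitor-like cells, where 54.7% of all genes were, and above 0 for 6, where 45.3% were. In astroglia-like cells it was above 0 for 10 of 19, where 47.8% were, and below 0 for 9, where 52.2% were. All 6 members tested in interneuron-like cells were below 0, where 54.2% of all genes were, and all 3 in Purkinje-like cells, where 50.3% were and 49.7% were above. In progenitor-like cells 2 of 13 members lay below both controls, where 16.3% of all genes did, and 0 above, where 21.6% did. Col12a1, a FACIT collagen of type I fibrils, was at 3.93 and 4.50 CPM in En1/2 CKO, against 17.0 and 8.41 CPM in control, a log2 fold change of -1.79 ± 0.40 (edgeR adjusted p = 0.718). Without the filter on low counts the edgeR adjusted p was 0.0163, in a fit that called 94 of 17828 genes. With 1 library left out, the log2 fold change lay between -2.01, without control replicate 2, and -1.07, without control replicate 1. Within the Ptf1a cluster Col12a1 was at 8.21 and 7.77 CPM, against 35.5 and 23.5 CPM, on 53 UMIs, and again the groups did not overlap. Markers of meningeal fibroblasts summed to 60.6 and 70.1 CPM in progenitor-like cells of En1/2 CKO, against 73.3 and 43.7 CPM in control, with 10 of 14 detected and Lum, Mgp, Ogn and Slc22a6 at 0, and their part in the result was not tested.

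Col11a1 was the other member below both controls, at 17.2 and 16.1 CPM in En1/2 CKO progenitor-like cells, against 28.7 and 23.5 CPM in control (log2 fold change -0.71 ± 0.25, -0.57 without control replicate 1 and -0.78 without control replicate 2, edgeR adjusted p = 0.718 with all libraries). It was also below both controls in interneuron-like cells, at 20.9 and 10.9 CPM, against 25.7 and 28.0 CPM (log2 fold change -0.74 ± 0.37, edgeR adjusted p = 1.00). In astroglia-like cells it overlapped, at 24.6 and 27.1 CPM, against 39.1 and 25.5 CPM, and in Purkinje-like cells likewise. These sums come from the same 4 libraries.

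Col5a2 showed how far the 2 controls differ. In progenitor-like cells its log2 fold change was -0.40 ± 0.54, with both mutants between the controls. Without control replicate 1 it was 1.14, and without control replicate 2 it was -1.005. The gene was chosen for this description after its values had been seen. Without control replicate 2, the log2 fold changes of Col23a1, Col28a1 and Col4a1 were -0.69, -0.81 and 2.02.

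In astroglia-like cells 4 of 19 members lay above both controls, where 17.8% of all genes did, and 2 below, where 13.2% did. Col1a2 was at 5.27 and 9.54 CPM in En1/2 CKO, against 19.3 and 33.9 CPM in control, a log2 fold change of -1.65 ± 0.47 (edgeR adjusted p = 1.00). With 1 library left out, its log2 fold change lay between -2.25, without En1/2 CKO replicate 2, and -1.36, without control replicate 2. Its partner Col1a1, too low to be tested there, was at 2.64 and 2.29 CPM, against 3.96 and 5.66 CPM. Col3a1, which had 282 UMIs beside 241 of Col1a2 in mural-like cells, had 4 beside 88 of Col1a2 in astroglia-like cells. Meningeal fibroblast markers summed to 90.0 and 114 CPM in astroglia-like cells of En1/2 CKO, against 162 and 67.9 CPM in control, with 11 of 14 detected and Aldh1a2, Mgp and Slc22a6 at 0, and their part in the result was not tested.

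Smaller differences in this class did not pass. Col4a5 was at 51.4 and 45.8 CPM in En1/2 CKO, against 68.3 and 65.0 CPM in control (log2 fold change -0.49 ± 0.26, edgeR adjusted p = 1.00). Those of Col5a3, Col18a1 and Col27a1 were 0.74 ± 0.40, 0.58 ± 0.60 and 0.55 ± 0.60, at the same adjusted p. Col18a1 and Col27a1 had 0 UMIs in control replicate 2 only. Without control replicate 1, which leaves that library as the lone control, their log2 fold changes were 6.81 and 6.88, and without control replicate 2 they were 0.30 and 0.27. Without control replicate 1, the log2 fold changes of Col9a3 and Col5a2 were 1.08 and 2.31, and without control replicate 2 that of Col2a1 was -0.81.

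Interneuron-like cells had 2 of 6 members below both controls, where 12.7% of all genes did, and 0 above, where 18.2% did. Col9a3 was at 19.6 and 21.4 CPM in En1/2 CKO, against 30.6 and 33.1 CPM in control, a log2 fold change of -0.63 ± 0.26 (edgeR adjusted p = 1.00). In Purkinje-like cells all 3 members tested overlapped between the groups, where 17% of all genes lay above and 12.2% below both controls. Their log2 fold changes were -0.29 ± 0.44 for Col9a3, -0.17 ± 0.40 for Col11a1 and -0.54 ± 0.52 for Col26a1.

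Of the 6 lists of collagen-handling genes, no gene passed in any of the 5 sums. In all cells 27 of 27 genes of synthesis, folding and secretion were tested, with a median log2 fold change of 0.04, set beside -0.06 for all genes tested. Of the 27, 15 were above 0, where 43.7% of all genes were, and 12 below, where 56.3% were. Of the small proteoglycans and matrix partners, 10 of 12 were tested, 8 were above 0 and 2 below, against the same shares of all genes, and the median was 0.37. Fmod was at 0.84 CPM in both En1/2 CKO libraries, against 0.150 and 0 CPM in control. Ogn was at 12.3 and 3.54 CPM, against 0.225 and 1.35 CPM. Both passed the filter on low counts through the mutant libraries, so this count and median rest in part on genes admitted by the difference itself. The 10 cleavage and crosslinking genes tested had a median of -0.07, the 9 receptors 0.19, the 12 basement membrane partners 0.16 and the 10 degradation genes 0.19. In astroglia-like cells 10 of 16 basement membrane partners were tested, with a median of -0.35, set beside -0.02 for all genes tested. Of these, 8 were below 0, where 52.2% of all genes were, and 2 above, where 47.8% were.

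Col3a1, Col5a2, Col9a1, Col4a4 and Col6a3 lie on chromosome 1 with En1, and Col26a1 lies on chromosome 5 with En2. Only mutants carried the floxed alleles. For any of these 6 members close enough to be linked, the mutation and linked DNA cannot be told apart. How close each lies to En1 or En2 was not measured here.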

How the data were processed

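Unnormalised UMI counts, deposited by the authors as gene by barcode matrices, cover 4 libraries of 10x 3' single-cell RNA-seq, with Cell Ranger 6.1.0 and mm10 named in the submitters' processing notes; whether intronic reads were counted is not stated. The cell filter asked for 500 genes or more and no more than 10% mitochondrial UMIs, and the highest Scrublet scores were removed as doublets at 0.8% per 1000 cells of a library. Cells were clustered with scanpy 1.11.5 and leidenalg 0.10.2 (2000 variable genes without collagens, 30 components, 15 neighbours, resolution 1). Classes were rebuilt here: a cluster took a name when at least 3 markers of a list were raised 1.5-fold. Median depth per cell was 2243 and 1110 UMIs in the En1/2 CKO libraries, against 1186 and 2429 in control. Counts were summed per class and library and tested with edgeR 4.0.16 (TMM, quasi-likelihood, Benjamini-Hochberg over all genes tested) under R 4.3.3, where each library had at least 20 cells; DESeq2 1.42.0 was an alternative. The test was checked on simulated data. CPM are counts per 1000000 UMIs of the class in a library. Poisson intervals and floors (95%, 3 counts) cover counting error only. Replicate numbers were not taken to pair libraries. Members and lists were chosen with earlier results of these data known. Named with values were, by rule, up to 5 members per class with the highest mean CPM, members with 50% or more of their UMIs in 1 non-vascular class, the 3 with most and fewest UMIs, and up to 5 per genotype comparison with the smallest p whose groups did not overlap. Other members and partner genes were named after their values had been seen.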

Additional observations from a re-analysis of the deposited data

How the results depend on the processing

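The number of collagens called in all cells was 0 of 33. With the replicate block it was 2 of 33 (Col8a1 and Col8a2), where 95 of 14785 genes were called. With DESeq2 it was 2 of 36, where 51 of 16507 genes were called. In progenitor-like cells it was 0, but 1 without the filter on low counts (Col12a1), and 0 to 6 with 1 library left out. In astroglia-like cells it was 0 to 3 with 1 library left out. Each fit with 1 library left out leaves 1 library in a group. Some of these fits also called members in all cells, and they called many other genes. The counts from fits with 1 library left out are therefore not read as genotype results. The replicate numbers were not taken as pairs. The correlation of same-numbered deviations was -0.05 in all cells and -0.26 in astroglia-like cells, over 2 pairs. The replicate block changed no other call, and a crossed block, added after seeing the data, called 0 members in each sum. Progenitor-like cells held 15.4% of collagen UMIs at resolution 2, in place of 18.9%, and astroglia-like cells 23.3% under a stricter cell filter, in place of 32.6%; the cause was not tested. For the 14 log2 fold changes of members named by rule in a genotype comparison, every value under the alternatives kept its direction. These members were named because their groups did not overlap, so a kept direction was largely set by that choice. Col5a2 in progenitor-like cells, named outside the rule, turned: it was -0.40 with all libraries, 1.14 without control replicate 1 and -1.005 without control replicate 2. Purkinje-like cells under the stricter filter and the vascular class under any setting were not run, for too few cells. Control replicate 2 had the fewest cells and UMIs; what its depth limits was not tested apart from its other differences.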

Other observations

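Barcodes that failed the cell filter, 2954 and 3472 in En1/2 CKO and 589 and 3442 in control, carried collagen at 429 and 393 CPM in En1/2 CKO, against 197 and 488 CPM in control. Ttr, the choroid plexus transcript, had 703 and 1831 UMIs in failed barcodes of En1/2 CKO, against 1 and 17 in control. Col8a1 had 1 and 0 UMIs there in En1/2 CKO, against 0 and 0 in control.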
